A study of Mus musculus with 24 samples.

Results

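The genes described here encode very large proteins that are not part of the contractile apparatus: cytoskeletal linkers, dynein heavy chains, giant ubiquitin ligases, lipid-transfer bridges, chromatin regulators and others. They form a list of 44 gene symbols, of which 41 were measured among the 18819 genes tested. Cep290 and Ubr4 were represented only by probe sets that name several genes, and these together with Chd7 were not analysed here. Members were chosen by protein size and name with the log2 differences between young knockout (KO) and young wild type (WT) ventricles already known, so the values of the members in that comparison are given as a description.

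Ventricles of C57/Bl6 mice were profiled on 24 microarrays in 4 groups of 6 arrays, namely WT and KO mice at a newborn and at a young age. Newborn mice were 1 to 2 days old and young mice were 30 days old per the labels. KO mice lacked caspase-7 in every tissue and had floxed caspase-3 deleted by the Nkx2.5::Cre transgene, which is active in the cardiac lineage, and whether WT mice carried the transgene or the floxed alleles is not given in the sources used here. The paper reports that some caspase-3 protein remained in newborn KO hearts on Western blots. Males and females were mixed in every group with the sex of each array not given, and the genotype labels were not checked by signal. The mean log2 signal of 8 cardiomyocyte markers was between 12.03 and 12.57 on all arrays. Young arrays differed in atrial markers, whose mean without Nppa ranged from 4.94 to 8.96 in WT and from 5.72 to 9.98 in KO.

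Very large proteins usually serve as scaffolds or long bridges. Spectraplakins and spectrins tie actin, microtubules, intermediate filaments and membranes together, cytoplasmic dynein carries cargo along microtubules, and VPS13 proteins form channels through which lipids move between organelles. Giant ubiquitin ligases mark proteins for degradation or signalling, and one of them, Birc6, also binds and inhibits caspases. Their genes are long and are transcribed in most tissues, the heart included.

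Start-site regions are shown for the members with the largest lower value in young KO ventricles, Huwe1, Dync1h1 and Kmt2d, because the signals of these genes carry the description below. Each window is 300 bases from RefSeq, build GRCm38.p6, written 5′ to 3′ on the strand of the gene, with GC boxes (the letters GGGCGG read on either strand) in capitals. The windows are chrX:151803032-151803331 on the plus strand for Huwe1, chr12:110601145-110601444 on the plus strand for Dync1h1 and chr15:98871156-98871455 on the minus strand for Kmt2d.
Huwe1: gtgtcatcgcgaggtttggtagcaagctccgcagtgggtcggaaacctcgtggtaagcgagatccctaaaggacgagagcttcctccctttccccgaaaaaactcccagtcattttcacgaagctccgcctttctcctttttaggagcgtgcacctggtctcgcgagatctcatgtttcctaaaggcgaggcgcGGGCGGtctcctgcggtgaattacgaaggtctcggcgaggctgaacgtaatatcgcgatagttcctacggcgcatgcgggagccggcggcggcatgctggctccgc
Dync1h1: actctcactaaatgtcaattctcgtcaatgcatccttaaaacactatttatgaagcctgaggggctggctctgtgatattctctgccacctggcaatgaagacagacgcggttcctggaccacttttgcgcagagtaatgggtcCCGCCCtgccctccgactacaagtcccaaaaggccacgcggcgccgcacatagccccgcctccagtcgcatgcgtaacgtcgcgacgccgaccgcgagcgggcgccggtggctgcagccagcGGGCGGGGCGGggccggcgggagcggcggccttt
Kmt2d: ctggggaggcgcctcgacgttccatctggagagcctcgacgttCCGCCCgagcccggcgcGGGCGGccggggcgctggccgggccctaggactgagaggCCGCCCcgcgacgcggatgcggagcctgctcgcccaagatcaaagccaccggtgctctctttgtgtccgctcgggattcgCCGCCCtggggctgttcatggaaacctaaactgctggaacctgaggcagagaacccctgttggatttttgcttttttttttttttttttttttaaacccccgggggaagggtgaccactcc
The Huwe1 window held 1 GC box, the Dync1h1 window 3, of which a pair overlap, and the Kmt2d window 4. Windows were found for 34 of the measured members, and 29 of these genes (85.3%) had at least 1 window with a GC box, beside 38.2% of the 27025 genes of the promoter table. The share was 9 of 10 among members called lower in young KO ventricles and 20 of 24 among the other members. A match is a string of letters and not a shown binding site.

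In newborn ventricles, no member differed between KO and WT by limma with Benjamini-Hochberg adjustment over all genes tested, and 0 members passed an unadjusted p of 0.05. The list was not chosen by this comparison. Across all genes tested, 0% were called, and 1.45% were higher and 7.62% lower at an unadjusted p of 0.05. The log2 difference, KO minus WT, was positive for 38 members and negative for 3, with a median of 0.07 and a range from -0.07 to 0.30, beside a median of -0.05 over all genes. No member had its 6 KO arrays all above or all below the 6 WT arrays, which 0.489% of all genes did. The members nearest to a difference, by unadjusted p, were Akap9, Rnf213, Nf1 and Mga.

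Akap9, an anchoring protein of the Golgi and the centrosome, had a log2 signal of 7.27 to 7.62 (median 7.40) in newborn WT and 7.40 to 7.69 (median 7.55) in newborn KO ventricles. The difference was 0.14 ± 0.069 (SE, n = 6 per group, limma adjusted p = 0.556). Rnf213, a giant ubiquitin ligase linked to moyamoya disease in humans, was at 7.10 to 7.38 (median 7.25) in WT and 7.35 to 7.53 (median 7.39) in KO, and the groups overlapped. Nf1, the Ras inhibitor neurofibromin, had a median of 7.82 in WT and 7.95 in KO. Mga, a partner of the transcription factor MAX, had a median of 7.77 in WT and 7.88 in KO. All of these overlapped between the genotypes. All 9 measured markers of the cell cycle were negative in the same comparison (median log2 difference -0.77). None was called, and all 9 were lower at an unadjusted p of 0.05 (limma), beside 7.62% of all genes. The part of these markers in the members' values was not tested.

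**Figure D1:**
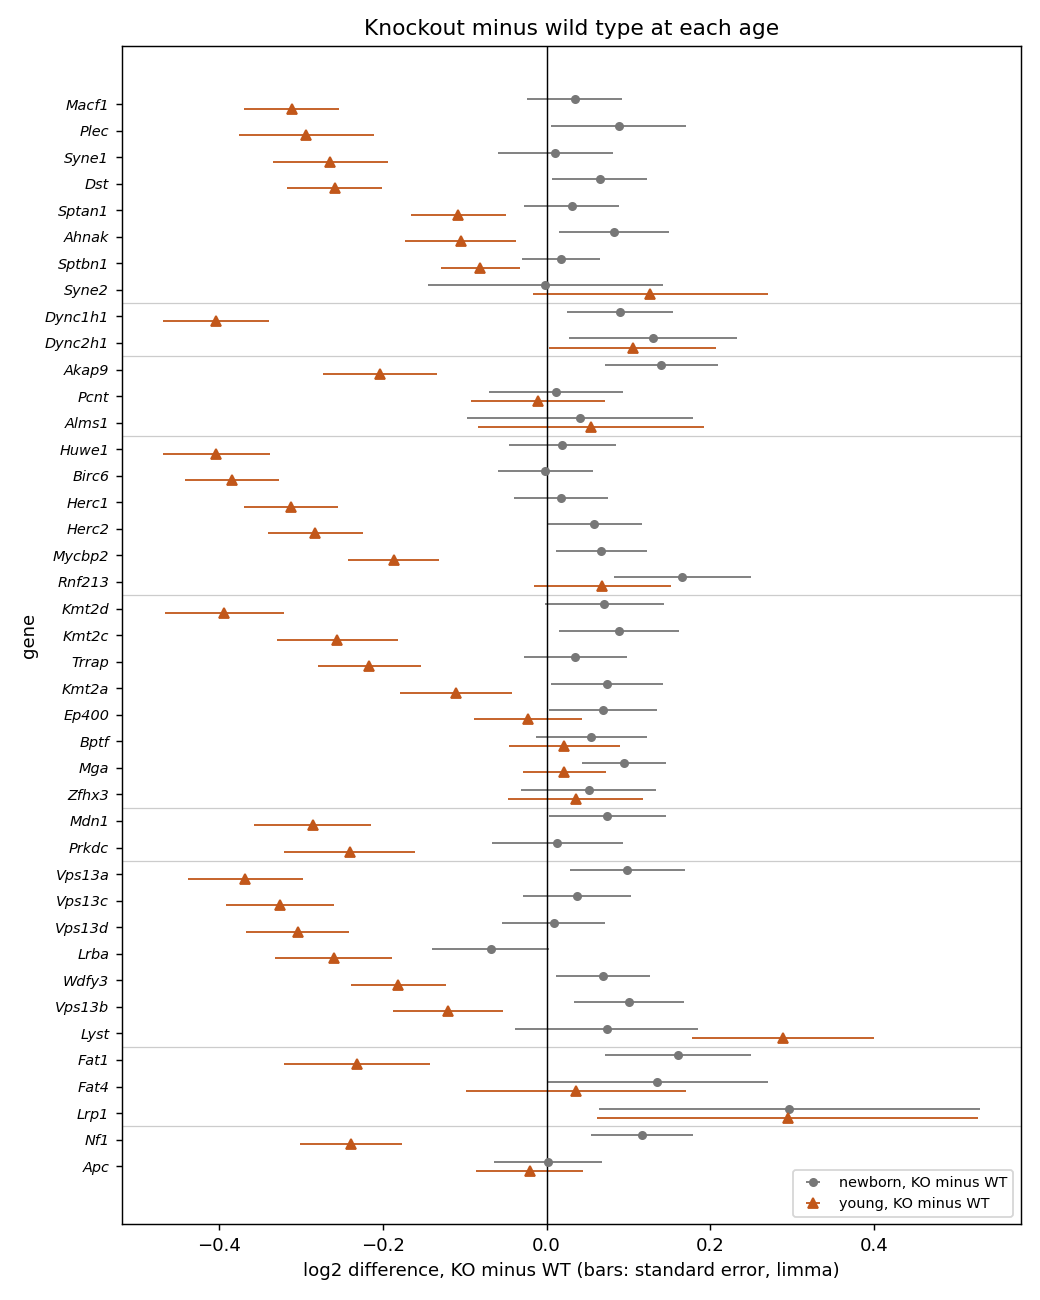
Log2 difference between KO and WT for each of the 41 measured members, at the newborn age (circles) and in young mice (triangles), with standard errors from limma and lines between role groups. Newborn values lie between -0.07 and 0.30, whereas 31 of the 41 young values are below 0.

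In young ventricles, 11 members were called lower in KO and 0 were called higher, and 30 were not called. The 11 were Huwe1, Dync1h1, Kmt2d, Birc6, Vps13a, Vps13c, Herc1, Macf1, Vps13d, Herc2 and Dst. Across all genes, 0.351% were called lower and 0.67% higher. The list was written knowing this comparison, so nothing is read from the count. The median difference over the members was -0.20, beside 0.03 over all genes and 0.01 over the 8641 genes with a mean log2 signal of at least 6. Of these 8641 genes, 0.66% were called lower. All 6 KO arrays lay below all 6 WT arrays for 9 members, as for 0.404% of all genes. In RNA of whole ventricles, fewer cells of a type and less RNA per cell cannot be told apart. None of the 11 calls held when only the 12 young arrays were fitted, where the adjusted p of the 11 genes rose above 0.05. Without young WT replicate 2, 16 members were called lower and 1, Lyst, higher, while the number of all genes called went from 192 to 784 (0.866% lower and 3.3% higher).

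Ubiquitin ligases held the largest number of calls, with 4 of 6 measured members lower and a median difference of -0.30. Huwe1, a ligase whose targets include p53 and Mcl1, had a log2 signal of 9.36 to 9.70 (median 9.54) in young WT and 8.98 to 9.29 (median 9.13) in young KO ventricles. The groups did not overlap. The difference was -0.40 ± 0.066 (SE, limma adjusted p = 0.00285), so that the signal fell by 24.4%. Birc6, the caspase inhibitor and ubiquitin ligase, was at 8.68 to 8.97 (median 8.90) in WT and 8.34 to 8.61 (median 8.50) in KO, again without overlap. Its difference was -0.38 ± 0.058 (limma adjusted p = 0.00145). Herc1, a large HECT-type ligase, was at 7.63 to 8.01 in WT and 7.47 to 7.64 in KO, so that the ranges met at their edges. Herc2, which acts in the response to DNA damage, had a median of 7.09 in WT and 6.81 in KO, and its groups did not overlap. Mycbp2, a ligase known from axon growth, had KO arrays (7.06 to 7.26) that all lay just below its WT arrays (7.26 to 7.42), and its difference of -0.19 was not called. Rnf213 differed by 0.07 and was not called.

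The dynein heavy chains had differences of opposite sign. Dync1h1, the motor subunit of cytoplasmic dynein, was at 9.36 to 9.73 (median 9.59) in young WT and 9.12 to 9.25 (median 9.19) in young KO. Every KO array was below every WT array, and the difference was -0.40 ± 0.065 (SE, limma adjusted p = 0.00255). Dync2h1, the motor of transport inside cilia, had a low signal, with a median of 3.95 in young WT and 3.91 in young KO. It differed by 0.11 (limma adjusted p = 0.684).

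Lipid-transfer and membrane-traffic genes gave 3 calls of 7, all of them VPS13 genes. Vps13a, whose loss causes chorea-acanthocytosis in humans, was at 7.43 to 7.71 (median 7.46) in young WT and 6.85 to 7.35 (median 7.19) in young KO, without overlap. Its difference, -0.37, was -0.12 and not called when its probe sets were averaged. Vps13c was at 7.20 to 7.63 in WT and 7.02 to 7.31 in KO, with a difference of -0.33, and Vps13d differed by -0.30. Vps13b, the remaining family member, differed by -0.12 and was not called. Lyst, a regulator of lysosome traffic, had a positive difference of 0.29 (adjusted p = 0.21), Lrba one of -0.26 (adjusted p = 0.077) and Wdfy3, an adaptor of autophagy, one of -0.18 (adjusted p = 0.125).

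Among the cytoskeletal linkers, 2 of 8 were called lower, with a median difference of -0.18. Macf1, a spectraplakin that joins actin to microtubules, was at 8.80 to 9.03 (median 8.94) in young WT and 8.51 to 8.74 (median 8.62) in young KO, and these ranges did not meet. Its relative Dst (dystonin) was at 9.67 to 9.98 (median 9.89) in WT and 9.55 to 9.72 (median 9.58) in KO, with 1 WT array inside the KO range, and a difference of -0.26 ± 0.058 (limma adjusted p = 0.0279). The call for Dst was lost when any of 6 single young arrays was left out (WT replicates 1, 3 and 4 and KO replicates 1, 2 and 4), as well as with centred arrays, with array weights, with the replicate block and in both fits of the 12 young arrays. Its difference lay between -0.33 and -0.21 over the alternatives. Plec and Syne1, plectin and the nuclear envelope protein nesprin-1, differed by -0.29 and -0.26 without being called. The spectrins Sptan1 and Sptbn1 and the scaffold Ahnak differed by -0.11, -0.08 and -0.11, and Syne2 by 0.13.

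Of the 8 chromatin and transcription genes, 1 was called lower. Kmt2d, a histone H3 lysine 4 methyltransferase needed for heart development, was at 7.53 to 7.78 (median 7.60) in young WT and 7.09 to 7.38 (median 7.23) in young KO, with no overlap and a difference of -0.39 ± 0.073 (SE, limma adjusted p = 0.00767). Its relative Kmt2c differed by -0.26 and Kmt2a by -0.11. The acetyltransferase scaffold Trrap differed by -0.22 (adjusted p = 0.0929), and Ep400, Bptf, Mga and Zfhx3 were between -0.02 and 0.04. No member of the small groups was called: the values were -0.29 for Mdn1 (ribosome assembly), -0.24 for Prkdc (DNA repair), -0.24 for Nf1, -0.02 for Apc, -0.23 for Fat1, 0.04 for Fat4, 0.30 for the receptor Lrp1, -0.20 for Akap9, -0.01 for Pcnt and 0.05 for Alms1. Just inside the threshold were Vps13d (adjusted p = 0.0164) and Dst (0.0279), and just outside it were Mdn1 (0.0509), Nf1 (0.0605) and Syne1 (0.0682).

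**Figure D2:**
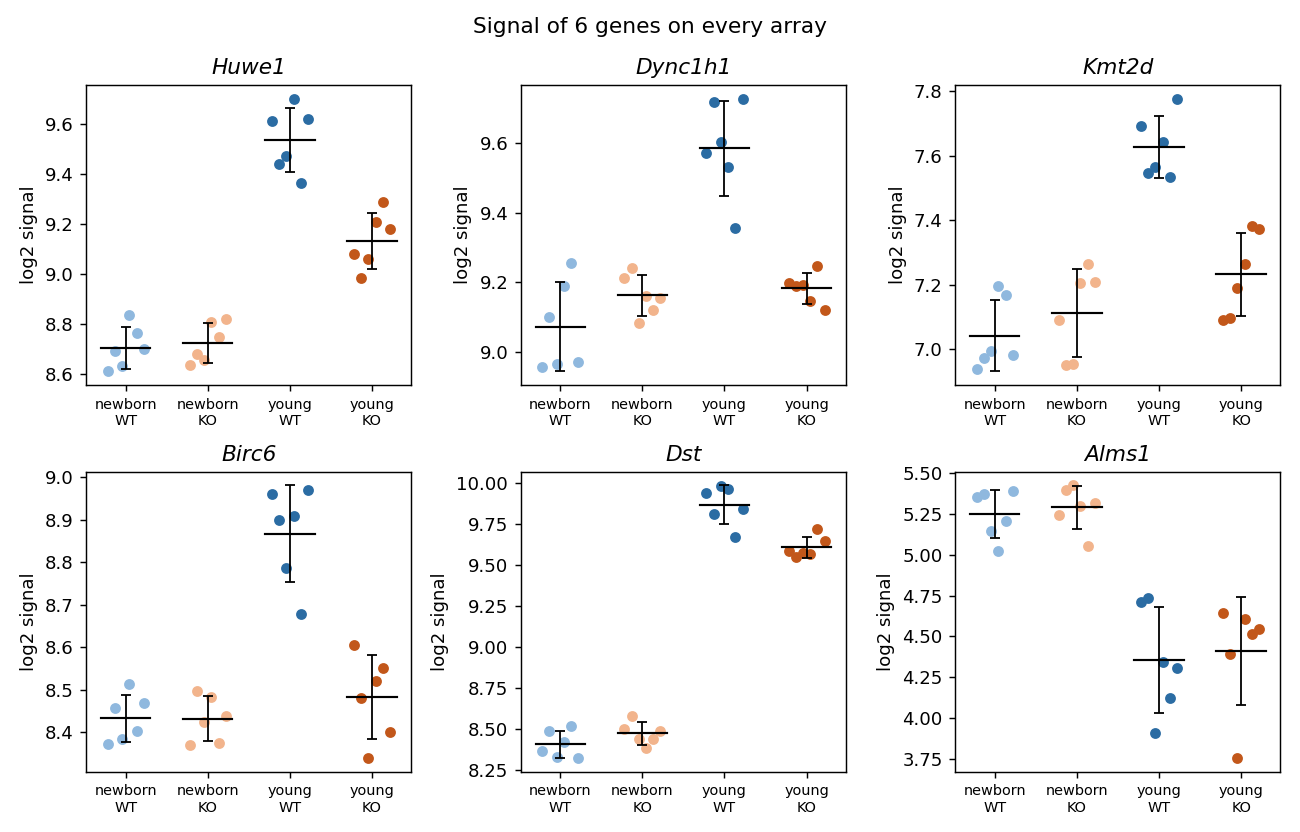
Log2 signal of 6 members on every array, with the mean and SD of each group of 6 arrays as horizontal line and bar, on axes that do not start at 0. Huwe1, Dync1h1, Kmt2d and Birc6 separate young WT from young KO without overlap, Dst nearly does, and Alms1 does not.

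The arrays of one group were not alike. The mean of all 41 members lay between 7.36 and 7.47 on newborn WT arrays and between 7.41 and 7.54 on newborn KO arrays. On young arrays it lay between 7.53 and 7.80 (WT) and between 7.45 and 7.67 (KO). The lowest young WT array, replicate 5, was below the mean of young WT for 40 of 41 members, whereas the other young WT arrays were below it for 10 to 18 members (each WT array is part of that mean). Young KO arrays were below it for 26 to 39 members. With WT replicate 5 left out, 15 members were called lower, beside 0.367% of all genes. That array is named for its low member values, and leaving it out raises the WT mean. Nothing is read from this count.

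Marker lists of other cells were measured on the same young arrays. All 8 atrial markers, 8 fibroblast markers and 5 smooth muscle markers had positive differences, with medians of 1.91, 0.63 and 1.64, and none of them was called. At an unadjusted p of 0.05 (limma), 8, 6 and 3 of them were higher and 0 lower, beside 10.4% of all genes higher. Other lists did not share this direction. Differences were positive for 4 of 7 endothelial, 3 of 6 leukocyte, 1 of 4 erythroid and 0 of 9 cell cycle markers. Their medians were 0.04, 0.02, -0.26 and -0.34. Of these, only the endothelial marker Egfl7 was called. It was lower in KO (limma adjusted p = 0.0446), as were 0.351% of all genes. The mean over the smooth muscle markers lay between 7.28 and 9.23 on WT and between 7.65 and 9.89 on KO arrays, and that over the fibroblast markers 7.80 to 9.42 and 7.85 to 9.69. The cardiomyocyte mean lay between 12.45 and 12.57 on young WT and between 12.38 and 12.45 on young KO arrays, with Ttn and Ryr2 of its 8 genes called lower. With the atrial mean as a covariate on the 12 young arrays, 0 members were called, as without the covariate on these arrays, and the median difference over the members was -0.18 with it and -0.20 without. The part of these cells in the members' values was not tested.

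Most members rose in WT ventricles between the newborn age and day 30: 28 of 41 were higher in young mice, 6 were lower and 7 were not called. Over all genes, 19.2% were called higher and 27.9% lower. Among the 8641 genes with a mean log2 signal of at least 6, 27.6% were called higher, with a median difference of -0.10. The median difference over the members was 0.39, beside 0.00 over all genes. These arrays include the young WT arrays of the comparison that informed the list. Centring each array on its median raised all differences between the ages in WT by 0.26, and the numbers then were 33 members higher and 4 lower, with Trrap and Fat1 no longer below 0, beside 52.3% of all genes higher and 15.9% lower.

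Dst had the largest rise, from 8.32 to 8.52 (median 8.39) in newborn to 9.67 to 9.98 (median 9.89) in young WT ventricles. The difference was 1.46 ± 0.058 (SE, limma adjusted p = 5.75e-16), and it remained 1.44 to 1.72 under the alternatives. Vps13a rose from 6.25 to 6.46 (median 6.35) to 7.43 to 7.71 (median 7.46), by 1.16 ± 0.070 (adjusted p = 1.21e-12), or by 0.58 when its probe sets were averaged. Vps13c rose from 6.35 to 6.62 (median 6.44) to 7.20 to 7.63 (median 7.51), by 1.01 ± 0.066 (adjusted p = 4.15e-12). In each of these the newborn and young WT arrays did not overlap. All 6 ubiquitin ligases, 6 of 7 lipid-transfer and traffic genes and 6 of 8 linkers were called higher, with medians of 0.48, 0.80 and 0.56.

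The members called lower with age in WT were Alms1, Fat4, Dync2h1, Lyst, Trrap and Fat1. The call for Lyst was lost with a covariate of long minus short loci, and those for Trrap and Fat1 with that covariate, with centred arrays and with a new quantile normalization. The call for Fat1 (adjusted p = 0.0457) was also lost without any of 14 single arrays, and its difference was above 0 with centred arrays and with the covariate. Alms1, a protein of the base of cilia whose loss causes Alström syndrome in humans, went from 5.02 to 5.39 (median 5.28) in newborn to 3.91 to 4.74 (median 4.33) in young WT ventricles, a difference of -0.89 ± 0.138 (limma adjusted p = 6.33e-06). Fat4, an atypical cadherin, went from 7.13 to 7.67 (median 7.48) to 6.38 to 7.17 (median 6.70), a difference of -0.72 ± 0.135 (adjusted p = 7.19e-05). Dync2h1 went from 4.41 to 4.84 (median 4.52) to 3.57 to 4.12 (median 3.95), and its difference was -0.67 ± 0.103 (adjusted p = 5.05e-06). Over the alternatives these differences came as near to 0 as -0.59 for Alms1, -0.35 for Fat4 and -0.42 for Dync2h1, and they stayed called. Array medians over all probe sets were 4.24 to 4.50, so the young WT median of Alms1 lay within that range and that of Dync2h1 below it. Such low signals limit what the sizes of these falls show.

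In KO ventricles, 18 members were higher in young than in newborn mice and 9 were lower, with a median of 0.12, beside 0.10 over all genes. Over all genes, 34% were called higher and 25% lower. Dst rose by 1.13, Vps13a by 0.69 and Lrba by 0.68, and Alms1, Fat4 and Dync2h1 fell by 0.88, 0.82 and 0.70 on the log2 scale. Dst was at 9.55 to 9.72 in young KO and 8.39 to 8.58 in newborn KO, and Lrba was at 7.25 to 7.66 and 6.63 to 6.89. Birc6 and Dync1h1, which rose by 0.43 and 0.51 in WT, differed by 0.05 and 0.02 between the ages in KO, and neither was called (adjusted p = 0.447 and 0.796). Bptf and Mga, called lower in KO, were above 0 when arrays were centred on their median, which raised all differences by 0.17 in KO and gave 26 members higher and 5 lower, beside 53.3% and 16% of all genes. The call for Mga (limma adjusted p = 0.0463) was also lost without any of 14 single arrays, and that for Bptf (0.0368) without any of 5. Calls for Lyst and Sptan1 were lost with centred arrays and with the covariate of long minus short loci, and that for Fat4 with the covariate.

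**Figure D3:**
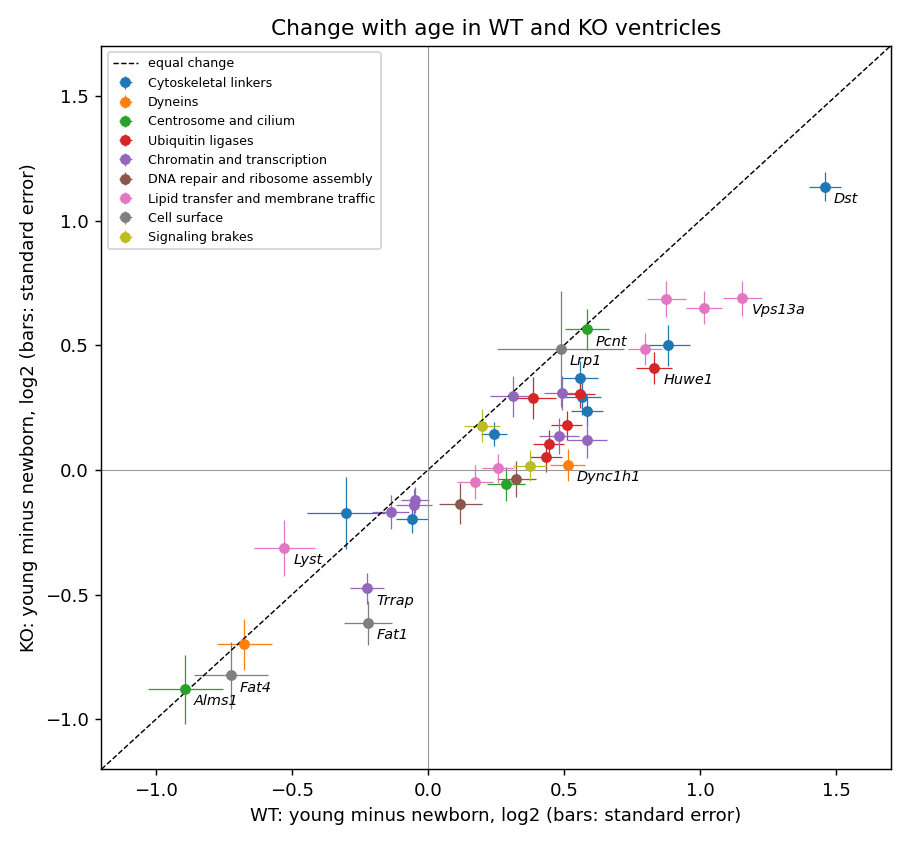
Log2 difference between young and newborn ventricles for each member in WT (horizontal) and KO (vertical) with standard errors, colours for role groups and a dashed line of equal change. Dst is highest in both genotypes and most members lie below the dashed line, and centring each array moves every WT value up by 0.26 and every KO value up by 0.17, which puts Trrap and Fat1 above 0 in WT and Bptf and Mga above 0 in KO.

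The difference between the KO effects of the 2 ages was negative for 38 of 41 members, with a median of -0.25 beside 0.08 over all genes. No member was called by limma, with 0 higher and 23 lower at an unadjusted p of 0.05, and 0.0106% of all genes were called. At the same unadjusted p, 10.9% of all genes were higher and 2.04% lower. The smallest adjusted p was that of Dync1h1 (difference -0.49 ± 0.092, adjusted p = 0.0594). This measure contains the young comparison that informed the list and is a description. The newborn differences of the 11 genes called lower in young KO had 95% intervals within -0.12 to 0.24 (limma).

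**Figure D4:**
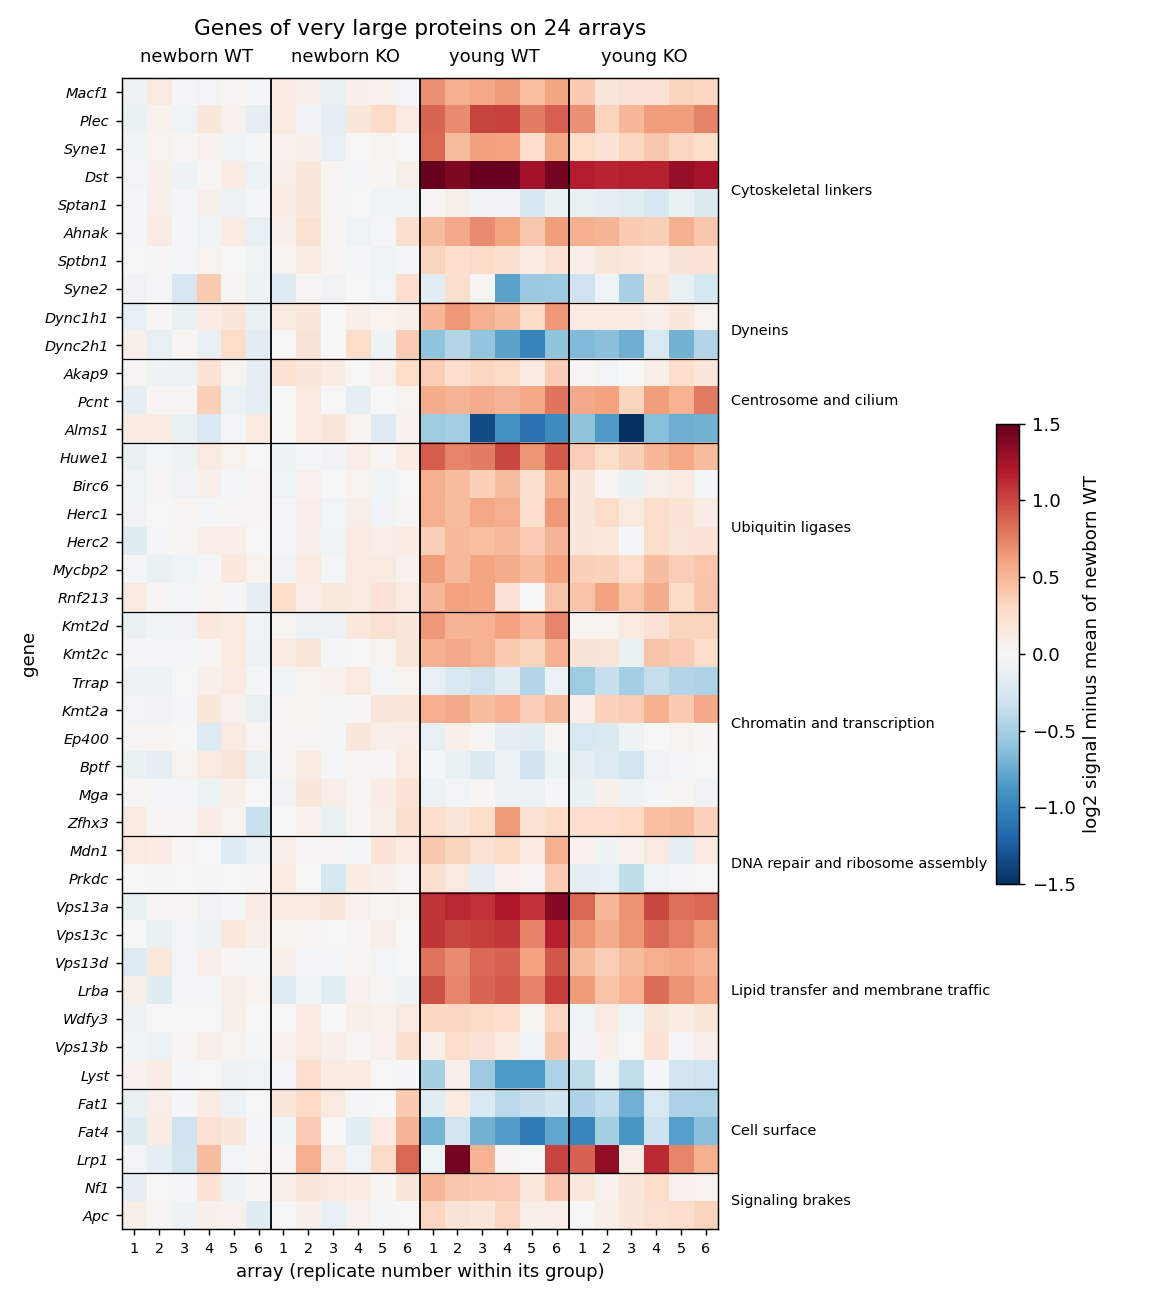
Log2 signal of the 41 members on each of the 24 arrays relative to the mean of newborn WT, by role group, in a colour scale that ends at 1.5 in either direction. Young WT arrays are above newborn WT for most linkers, ubiquitin ligases and VPS13 genes, and young KO arrays lie between them for many of these genes.

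The other large proteins of the heart, those of muscle, gave 5 lower calls of 13 measured genes in young KO, beside 0.351% of all genes. All 13 differences were negative (median -0.30), beside 7484 of 18819 over all genes. Filamin C (Flnc) was at 10.26 to 10.58 (median 10.36) in young WT and 9.67 to 10.06 (median 9.89) in young KO, titin (Ttn) at a median of 11.34 and 10.92, and dystrophin (Dmd) at 8.60 to 8.97 (median 8.80) and 8.33 to 8.52 (median 8.42). Of the 13 genes, 2 were called when the 12 young arrays were fitted alone, 0 when the atrial covariate was added to that fit and 3 without young WT replicate 4 or 6. In the same fits, in that order, 0.0478%, 0.0213%, 0.255% and 0.25% of all genes were called lower. The median difference of the 13 genes was -0.30 on the 12 arrays alone and -0.24 with the covariate. In WT, 9 of the 13 rose with age (median 0.79), beside 19.2% of all genes. Short proteins that work with the listed ones, such as dynein light and intermediate chains, dynactin subunits, subunits of the KMT2 complexes and lamins, were measured for 74 of 81 genes. Of these, 0 were called by limma in young KO (7 higher and 3 lower at an unadjusted p of 0.05, beside 10.4% and 4.57% of all genes, median 0.02). Up to 4 were called with a young array left out (WT replicate 2 or KO replicate 3). Without WT replicate 2, 0.866% of all genes were called lower and 3.3% higher, and without KO replicate 3, 0.84% and 3.44%. With age in WT, 12 of the partners rose and 35 fell, beside 19.2% and 27.9% of all genes. Their median of -0.14 turned to 0.12 with centred arrays.

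**Figure D5:**
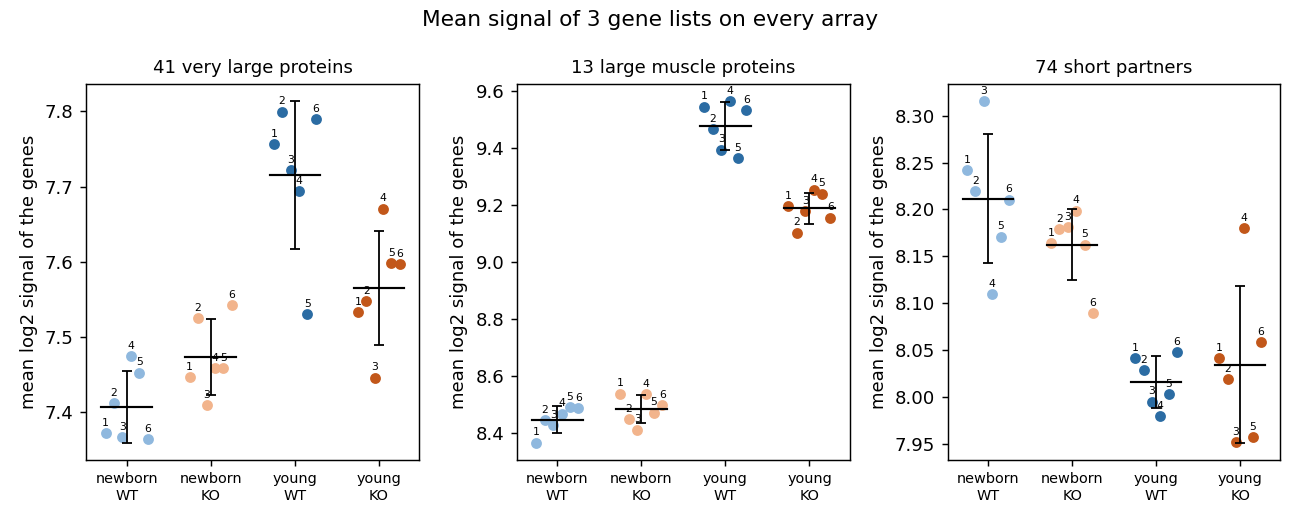
Mean log2 signal on every array over the 41 members, 13 large muscle proteins and 74 short partners, with replicate numbers and the mean and SD of each group, on axes that do not start at 0. The large muscle proteins are lower on all young KO arrays (9.10 to 9.25) than on young WT arrays (9.36 to 9.56), the members overlap, and the short partners overlap.

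Long genes were followed separately, because the members' loci span 42.4 to 682.3 kb (median 157.4 kb), as annotated in GRCm38.p6. A locus span runs from the start to the end of the gene and is not the length of its transcript or protein. Without the members, the share of genes called lower in young KO was 0.123% for loci under 10 kb, 0.237% for 10 to 30 kb, 0.309% for 30 to 100 kb, 0.768% for 100 to 200 kb and 1.1% for 200 kb and over. The median difference was between 0.03 and 0.04 in each of these classes. The mean of genes at 200 kb and over minus that of genes under 10 kb lay between 0.88 and 1.06 on the young WT arrays and between 0.82 and 1.03 on the young KO arrays. The part of locus length in the members' values was not tested.

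Several probe sets that name only that gene were available for 10 members, 23 in all. Among these, 3 were called lower in young KO: the brighter probe set of Kmt2d, of Vps13a and of Vps13d. The share over all probe sets of that fit is not given here, so nothing is read from the count. The second probe set of Kmt2d differed by -0.27 and that of Vps13d by -0.37, and that of Vps13a, with a mean log2 signal of 2.97, by 0.12. Signs were equal over a gene's probe sets for 5 of the 10 genes in young KO and for 9 of 10 with age in WT. The exception with age was Pcnt (pericentrin), whose brighter probe set rose by 0.58 whereas its dimmer probe set, at a mean of 3.23, fell by 0.41 on the log2 scale (limma adjusted p = 0.00334). Equal signs with age in WT included Vps13a, whose brighter probe set rose by 1.16. Its second probe set differed by only 0.003 (limma adjusted p = 0.987).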

How the data were processed

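Total RNA of ventricles was hybridised to 24 mouse gene arrays, 6 in each group. Per the labels, the authors deposited log2 signals per probe set after RMA, with oligo 1.22, limma 3.14 and R 2.15 named in the submitters' processing notes. The deposited log2 values carry no read depth. The precision of a difference depends on the number of arrays and on the spread of each gene, with limma standard errors of 0.048 to 0.233 over the members for KO minus WT. Array medians ranged from 4.24 to 4.50, arrays of a group correlated at 0.986 to 0.996 on average, and 0 pairs of arrays were identical. Per the methods, RNA came from 6 hearts in each group, so each array was taken as 1 heart.

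Of 35017 probe sets, 21118 named 1 gene, 1735 several and 12164 none. Each gene was represented by its brightest probe set over all arrays (18819 genes), and names came from the platform annotation, which can be old. limma 3.58.1 (R 4.3.3) was fitted once to all 24 arrays with 1 mean per group (20 residual degrees of freedom), and p-values were adjusted by Benjamini-Hochberg over all genes, with a threshold of 0.05. The code of the fit was checked on simulated arrays with independent genes and an equal spread in all groups, which does not bear on the calls reported here. Genes with full array values were named by rule: the 4 newborn members with the smallest p, the 8 largest young calls, the 3 largest rises and falls with age, members without overlap (at most 6) and 3 called genes per comparison list. Members outside this rule were named after their values were seen. The members and lists were chosen with earlier results of these data known. Alternatives covered scaling, filters, probe sets, array weights, replicate block, left-out arrays and covariates. Protein lengths were not used here, and locus spans took their place.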

Additional observations from a re-analysis of the deposited data

Results flagged for a closer look

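A total of 2 values stood far from the rest of their group, out of 72 groups of 6 arrays examined, where chance alone gives about 3.6. In young WT ventricles, Nf1 was at 7.99 on replicate 5 and at 8.22 to 8.32 on the others, so that the gap was 0.677 of the whole range. In young KO ventricles, Alms1 was at 3.76 on replicate 3 and at 4.39 to 4.64 on the others, a gap of 0.721 of the range.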

How the results depend on the processing

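The newborn count of called members was 0 under all 35 alternatives, and the median differences of the members kept their sign in every comparison. In young KO against WT, 11 members were called lower, beside 0.351% of all genes. The count was 0 when only the 12 arrays of the comparison were fitted (0.0478% of all genes lower). It was 0 on these 12 arrays with the atrial covariate (0.0213%, members' median -0.18) and 6 at an adjusted p under 0.01 (0.106%). A covariate of long minus short loci, chosen after seeing the data, gave 21 members, beside 0.856% of all genes lower and 2.75% higher. Leaving out single arrays gave 10 to 17 members, all of them lower except Lyst, higher without young WT replicate 2, where 16 were lower. In these fits, 0.207% to 0.866% of all genes were called lower. Kmt2d and Vps13a lost the call when a gene's probe sets were averaged. The replicate block gave 10 members called lower, with Dst lost, beside 0.377% of all genes. Whether the replicate numbers pair any arrays was not tested. Same-numbered arrays of different groups correlated in their deviations at -0.438 to 0.645, with the highest value for young WT and young KO replicate 2. Of 24 arrays, 8 correlated best with their own number. Between the ages, the median in WT was 0.64 with centring, 0.50 with a new quantile normalization and 0.47 with the locus covariate, and the median in KO was 0.29, 0.19 and 0.22. In the difference of KO effects between ages, the median was -0.34 with centring, and the count of called members, 0 in the fit reported, was 2 with quantile normalization, 1 with the dimmest genes left out, 1 with a variance trend, 2 with array weights, 5 without both newborn arrays numbered 4, 4 with the locus covariate and 0 to 3 with single arrays left out. Leaving out both newborn arrays numbered 4 also moved the newborn KO against WT calls over all genes from 0 to 482. Shares of all genes called in the difference of KO effects are not given for these alternatives, so nothing about the members is read from these counts. Of the large muscle proteins, 5 were called in young KO in the fit reported, 2 with the 12 arrays alone, 3 at an adjusted p under 0.01, 0 on the 12 arrays with the atrial covariate (median -0.24) and 3 to 7 with single arrays left out, and their median with age in WT was 1.05 with centring. The shares of all genes called lower in these young KO fits are those given above for the members. Of the short partners, 0 were called in young KO, 1 with a variance trend, 2 with array weights, 3 with the locus covariate and 0 to 4 with single arrays left out, and their median with age in WT, -0.14, reversed to 0.12 with centring. Among all genes in young KO, 0.393% were called lower and 0.67% higher with the variance trend, and 0.452% and 1.08% with array weights. The causes were not tested. Bins and a covariate of protein length could not be run, since no protein lengths were used here. Probe sets near background, such as the second of Vps13a at 2.97, limit what small differences can show.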
